A study of Mus musculus with 18 samples.

Results

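The genes described here encode the proteins of the cytosolic ribosome. They were chosen by symbol, as genes whose array probe set carried a single symbol of the Rpl or Rps series (with Rplp0, Rplp2 and Rpsa, and without the S6 kinases). This gave 48 genes with 100 probe sets, out of 12393 genes and 22690 probe sets on the array. Of the 48, 26 belong to the large subunit and 22 to the small subunit. Each gene was read from its probe set with the highest mean, and 42 of the 48 passed the filter on low signals (above the array median on at least 4 of the 18 arrays). These 42 lay above the array median on all 18 arrays, so the filter favoured no group among them. Rpl37, Rpl39, Rpl39l, Rpl3l and Rps27 lay above the median on 0 arrays and Rps4l on 2, and they were not tested. A further 102 probe sets that name a ribosomal protein gene among several symbols were not used, and Rpl5 and Rplp1 were not analysed here.

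The 18 lung tumours were dissected from 6 mice, 10 weeks old, of the strain C57/B6-129SvJae. Treated mice had 2 tamoxifen injections into the peritoneum, their tumours are labelled as p53 restored, and they were collected 7 days after the first injection. Treated tumours numbered 6 of grade 3 and 4 of grade 2, untreated ones 4 of each grade, and the labels name neither the alleles carried by the mice nor a vehicle for the untreated ones. The single female, 8688, bore every treated tumour of grade 3 and 8688T8, 8688T9 and 8688T10 of grade 2, and the last treated tumour, 8639T4, came from a male. The untreated tumours came from 4 males: 8584T3, 8565T1, 8629T10 and 8629T12 were grade 3, and 8700T1, 8700T3, 8565T3 and 8565T4 were grade 2. Treatment in grade 3 therefore cannot be told apart from mouse and sex, and tumours that share a mouse are not independent, which makes the p-values too small. p53 itself was not analysed here.

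Ribosomal protein genes are scattered over the genome but are made in step, so that the subunits receive their proteins in near-equal amounts. Their messenger RNAs typically begin with a cytosine followed by a run of pyrimidines, the terminal oligopyrimidine (TOP) motif, through which mTOR signalling controls their translation. Several free ribosomal proteins, RPL5 and RPL11 foremost, bind MDM2 and block its action on p53 when ribosome assembly fails. Rps27l, a paralogue of Rps27, is known as a gene that p53 switches on. These links are why the family is of interest in tumours in which p53 returns.

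Start sites are shown because of the TOP motif, for members whose signal followed the rest of the family and for members that departed from it. Each line gives 15 bases before the annotated start and the 15 bases from it, in RefSeq's GRCm38.p6 annotation, and capitals mark a pyrimidine run of at least 7 bases that reaches within 5 bases of the start. Rpl38, Rplp2, Rps18 and Rpl35 had correlations with the mean of the other members above 0.8, and Rps6, Rpl14, Rpl22l1, Rps27l and Rps25 had the low values given further on.
Rpl38, chr11:114668565-114668594, plus strand: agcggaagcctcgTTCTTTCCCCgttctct
Rplp2, chr7:141447636-141447665, plus strand: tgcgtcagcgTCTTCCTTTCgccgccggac
Rps18, chr17:33955651-33955680, minus strand: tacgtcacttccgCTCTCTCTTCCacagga
Rpl35, chr2:39005117-39005146, minus strand: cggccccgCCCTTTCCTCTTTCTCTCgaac
Rps6, chr4:86857353-86857382, minus strand: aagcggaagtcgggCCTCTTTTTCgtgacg
Rpl14, chr9:120571502-120571531, plus strand: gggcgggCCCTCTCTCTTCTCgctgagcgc
Rpl22l1, chr3:28805493-28805522, plus strand: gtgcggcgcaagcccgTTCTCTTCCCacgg
Rps27l, chr9:66946071-66946100, plus strand: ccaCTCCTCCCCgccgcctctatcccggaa
Rps25, chr9:44407699-44407728, plus strand: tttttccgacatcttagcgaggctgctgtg
The run begins within 2 bases of the annotated start in Rpl38, Rps18, Rps6 and Rpl22l1. It begins farther upstream and spans the start in Rplp2, Rpl14 and Rpl35, lies upstream of it in this Rps27l entry, and is missing from the Rps25 window. RefSeq promoters were found for 42 of the 48 members, in 50 entries of 300 bases each. Such a run was present in 42% of the member entries against 13.5% of all 32851 entries, and a C at the start followed by pyrimidines, at least 5 in all, in 16% against 2.51%. On either strand, CCGGAAG, the core recognised by ETS factors, was in 42% of member entries against 8.86% of all, TATAAA in 12% against 13.6%, and ATGGCGG, a core of YY1 sites, in 14% against 4.05%. The run was in 38.9% of the 36 entries of members with a correlation above 0.8 and in 5 of the 8 entries of the other tested members (62.5%).

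The signals are log2 values after the authors' normalisation, which ran up to 14.1 for any probe set. Of the 42 members tested, 38 had a mean above 10, so most were read near the bright end of the arrays. The excess of 3′ over 5′ signal of the actin and Gapdh control transcripts, which rises as RNA is degraded or incompletely copied, was 2.62 in 8688T3 and 1.85 in 8639T4 against at most 1.05 in the other arrays. Results are therefore also given without these 2 tumours. Markers of alveolar type 2 cells, from which such tumours are thought to arise, were high in every group, with tumour means between 11.73 and 12.75 over the 7 markers tested. In whole tumours, fewer cells of a type and less RNA per cell cannot be told apart.

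The ribosomal protein signal varied among tumours of 1 group by as much as between groups. The mean over the 42 members was 11.73 ± 0.17 (SD, n = 6) in grade 3 and 11.66 ± 0.18 (n = 4) in grade 2 tumours after treatment, and 11.59 ± 0.22 (n = 4) and 11.82 ± 0.24 (n = 4) without it. In treated grade 3 tumours the tumour means had a low of 11.59, a median of 11.67 and a high of 12.02, the last in 8688T3. In treated grade 2 tumours they were 11.58 in 8688T8, 11.66 in 8688T9, 11.48 in 8688T10 and 11.90 in 8639T4. The highest member means of the treated groups thus lay in the 2 tumours with the largest 3′ excess. In untreated grade 3 tumours the means were 11.26 in 8584T3, 11.71 in 8565T1, 11.74 in 8629T10 and 11.65 in 8629T12. In untreated grade 2 tumours they were 11.91 in 8700T1, 11.85 in 8700T3, 11.48 in 8565T3 and 12.03 in 8565T4. The ranges of all 4 groups overlapped. Without 8688T3 and 8639T4 the treated means were 11.68 ± 0.11 (n = 5) in grade 3 and 11.57 ± 0.09 (n = 3) in grade 2.

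**Figure D1:**
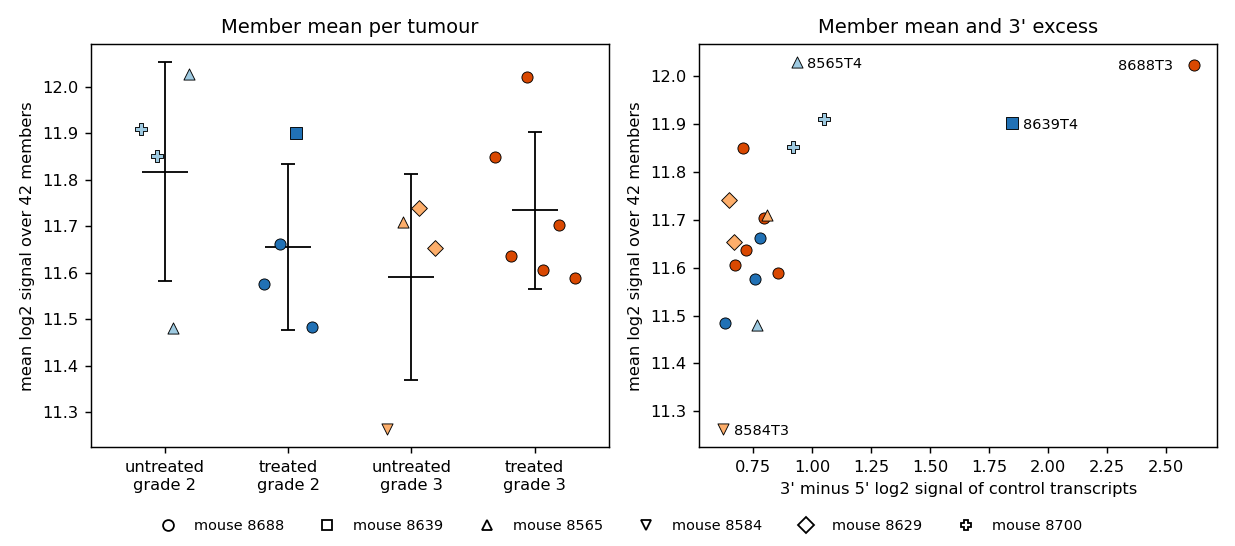
Left, the mean log2 signal over the 42 members tested in each of 18 tumours, by group, with crosslines at the group mean and bars of 1 SD, and marker shapes for the 6 mice. Right, the same means against the 3′ minus 5′ log2 signal of the control transcripts: 8688T3 (2.62) and 8639T4 (1.85) stand apart on the horizontal axis, and 8565T4, at 12.03, is as high without such an excess.

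Single tumours carried these differences across nearly the whole family. 8584T3 had the lowest value of its group in 39 of the 42 members and lay above a member's mean over the 18 tumours in only 2. 8565T3 was lowest of its group in 36 members and 8565T4 highest in 29, although both are untreated grade 2 tumours of the same mouse. 8565T4 exceeded 8565T3 in 36 of 42 members, with a median log2 difference of 0.65. That is more than any of the members' median differences between groups given below. 8639T4 was highest of its group in 35 members and 8688T3 in 30. The 2 tumours of mouse 8700 and the 2 of mouse 8629 lay closer together, with medians of the difference of −0.05 and −0.12.

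Most members followed one another over the 18 tumours. Pearson's r between a member and the mean of the other members had a median of 0.90 and exceeded 0.8 in 33 of 42. After the group means were taken out, the median was 0.90 as well, so the shared variation ran within groups. One component held 72.4% of the members' variance over tumours. Tumours of 1 mouse and the shared normalisation underlie these values, so they are a description. Rpl19, a large subunit protein, followed the mean of the others most closely (r = 0.97), before Rpl38 (0.96), Rps3 (0.96), Rplp2, an acidic stalk protein (0.95), and Rps24 (0.95). The members that followed it least were Rps6 (−0.56), Rpl22l1 (−0.55), Rps25 (−0.52), Rps14 (−0.07) and Rpl14 (−0.06), and Rpl12 (0.04), Rps27l (0.34) and Rpl7l1 (0.34) were also low. The members' median SD within groups was 0.26 against 0.23 over all 7300 genes tested.

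The type of probe set moved with this correlation. Of the 81 member probe sets that passed the filter, the 38 marked as sharing probes between genes (suffix x or s) had a median r of 0.91, the 27 marked as shared between transcripts of 1 gene (suffix a) also 0.91, and the 16 without a mark 0.40. Among the 42 chosen probe sets r exceeded 0.8 in 12 of 13 with the suffix x or s, 16 of 19 with the suffix a and 5 of 10 without a mark. Rpl19, with an r of 0.97, is among the unmarked. Several genes were split between their own probe sets. For Rps14 the brightest probe set had an r of −0.07 and a second probe set 0.91, for Rpl7 the values were 0.83, 0.81 and −0.37, and for Rpl41 they were 0.91, 0.86, −0.02 and −0.36. Rps9 had an r of 0.90 by its chosen probe set and −0.88 by a second of nearly the same mean (12.33 and 12.32), and these gave 0.24 and −0.17 for treatment in grade 3 and −0.28 and 0.16 in grade 2. A member's departure from the family is therefore a property of 1 probe set where no second one passed the filter. This holds for Rps6, Rps25, Rpl14, Rpl12 and Rpl22l1, and the part of the probe design in such departures was not tested.

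**Figure D2:**
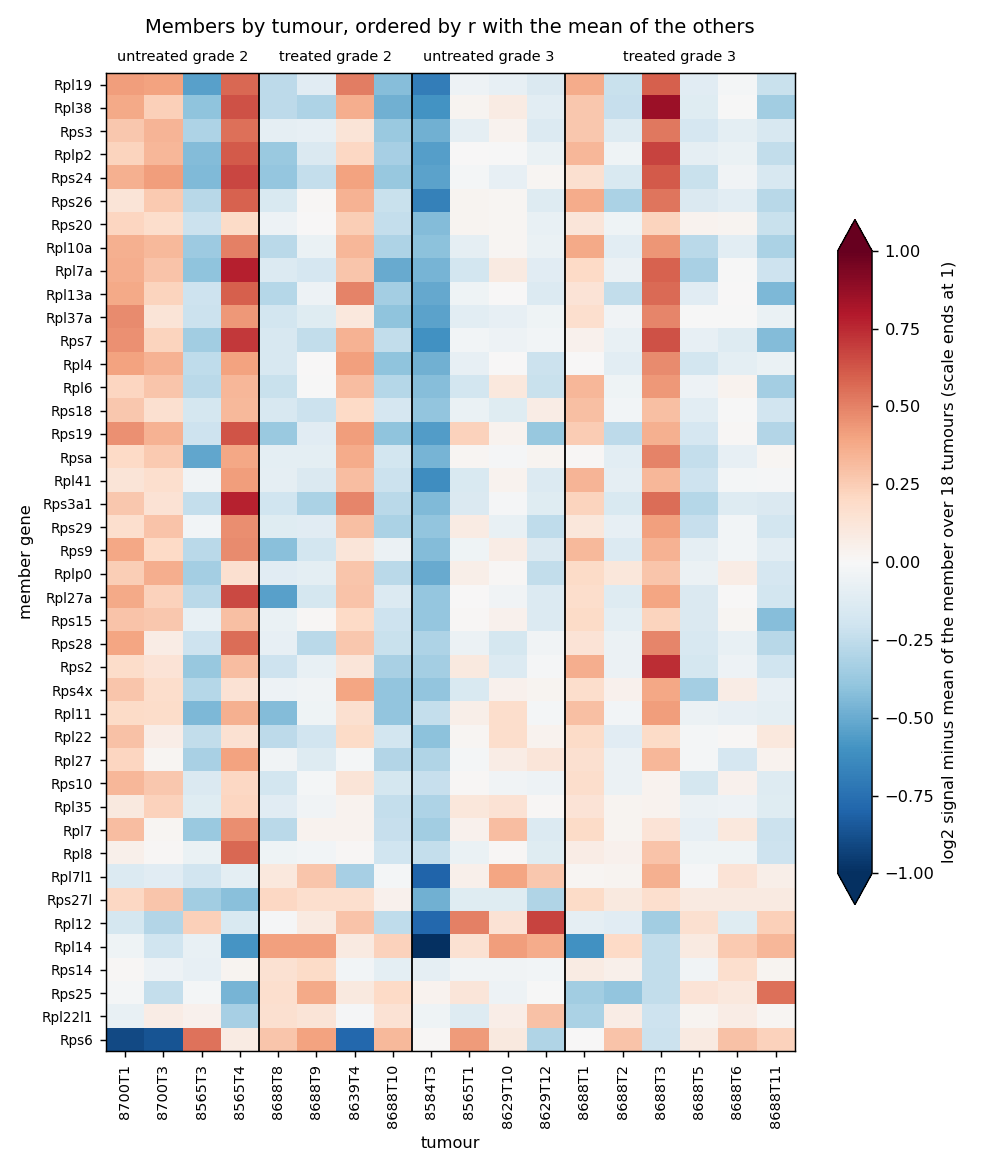
Log2 signal of the 42 members (rows) in 18 tumours (columns, by group), each minus the member's own mean over the 18 tumours, ordered from the highest (Rpl19, 0.97) to the lowest (Rps6, −0.56) Pearson r with the mean of the other members. The colour scale stops at 1 either side of 0, and Rpl14 in 8584T3 lies beyond it. 8584T3 is low and 8565T4 and 8688T3 are high down most of the column, and the lowest rows run differently.

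The comparison of treated with untreated grade 3 tumours asks whether the return of p53 in advanced tumours came with a change in ribosomal protein RNA. No member passed the test (limma, Benjamini-Hochberg adjusted p below 0.05 over 7300 genes) and the smallest adjusted p among members was 0.522, while 0.466% of all genes passed. At an unadjusted p below 0.05 there was 1 member and 645 of 7300 genes. The fitted difference, treated minus untreated, was above 0 in 38 of 42 members with a median of 0.24, against 0.04 over all genes, of which 56.9% were above 0. The members' differences ran from −0.12 (Rpl22l1) to 0.43 (Rpl19), with a median standard error of 0.22. The median of the 95% intervals' half-widths was 0.46, so shifts of the observed size could not be resolved gene by gene. The large and small subunits had the same median, 0.24.

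Rpl19 had the highest fitted value. Its log2 signal in treated grade 3 tumours had a low of 12.26, a median of 12.41 and a high of 13.08, and in untreated ones it was 11.79 in 8584T3, 12.43 in 8565T1, 12.40 in 8629T10 and 12.34 in 8629T12. The groups overlapped, and 8584T3 lay apart from the rest. The fitted difference was 0.43 (SE 0.31, limma adjusted p = 0.702). Without 8584T3 the median over the members fell from 0.24 to 0.096, without 8639T4 to 0.16, and without both 8688T3 and 8639T4 to 0.086. Weighting arrays by their spread, which gave 8584T3 a weight of 0.22, gave a median of −0.007. With sex as a covariate, whose effect rests on 8639T4 as the only treated male, it was 0.59. The size of the upward lean in grade 3 thus varied with single tumours and with the model.

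In grade 2 the members lay the other way. No member passed, the smallest adjusted p was 0.778, and 0.0685% of all genes passed. At an unadjusted p below 0.05 there were 0 members and 510 genes. With array weights 28 of 42 members and 1975 of 7300 genes passed, and the estimated correlation within mice was then 0.0033. Among the untreated grade 2 tumours the weights were 6.34 in 8700T3, 1.12 in 8700T1, 0.37 in 8565T3 and 0.59 in 8565T4, so that fit leaned on 8700T3. The difference was above 0 in 8 of 42 members, with a median of −0.18 against 0.02 over all genes, and it ran from −0.34 (Rpl7a) to 0.53 (Rpl14). The medians were −0.18 in the large and −0.17 in the small subunit. Rpl7a, Rpl27a and Rps24, the members with the lowest values, had fitted differences of −0.34 (SE 0.29), −0.32 (SE 0.24) and −0.31 (SE 0.29). Without 8565T4 alone the members' median was −0.02, and without 8565T3, its counterpart from the same mouse, −0.29. Without 8639T4, and without both 8688T3 and 8639T4, it was also −0.29. With sex as a covariate, which leaves 8639T4 as the only treated male, the median was 0.11.

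The difference between the treatment effects of the 2 grades was tested as an interaction. No member passed, with a smallest adjusted p of 0.539, and 0% of all genes passed. At an unadjusted p below 0.05 there were 3 members and 665 genes, and the members' median was 0.39 against 0.02 over all genes. Rpl37a, a large subunit protein with a zinc finger, had the highest interaction value, 0.65 (SE 0.24, limma adjusted p = 0.539). Its signal in treated grade 3 tumours had a low of 12.31, a median of 12.37 and a high of 12.86, and was 11.84, 12.27, 12.29 and 12.34 in the untreated ones. In grade 2 it was 12.20 in 8688T8, 12.26 in 8688T9, 12.48 in 8639T4 and 11.97 in 8688T10 among the treated, and 12.85 in 8700T1, 12.50 in 8700T3, 12.16 in 8565T3 and 12.81 in 8565T4 among the untreated. The treated tumours were mostly above the untreated ones in grade 3 and mostly below them in grade 2, with overlap in both. Leaving out 1 tumour at a time, the members' median interaction ran from 0.26 (without 8565T4) to 0.57 (without 8565T3).

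The opposite lean in the 2 grades came from the members with a high correlation. All 33 members with an r above 0.8 had a difference above 0 in grade 3 and below 0 in grade 2, with medians of 0.26 and −0.19. These members vary together, so they are not 33 separate signs, and the split uses the same values, so it has no test. Of the other 9 members, 5 were above 0 in grade 3 and 8 in grade 2, with medians of 0.04 and 0.20. Where probe sets with any of the 3 suffixes were left out, 15 members could be tested, and the medians were 0.17 in grade 3, 0.07 in grade 2 and −0.01 for the interaction. Leaving out only probe sets shared between genes kept 36 members, with medians of 0.24, −0.18 and 0.37.

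**Figure D3:**
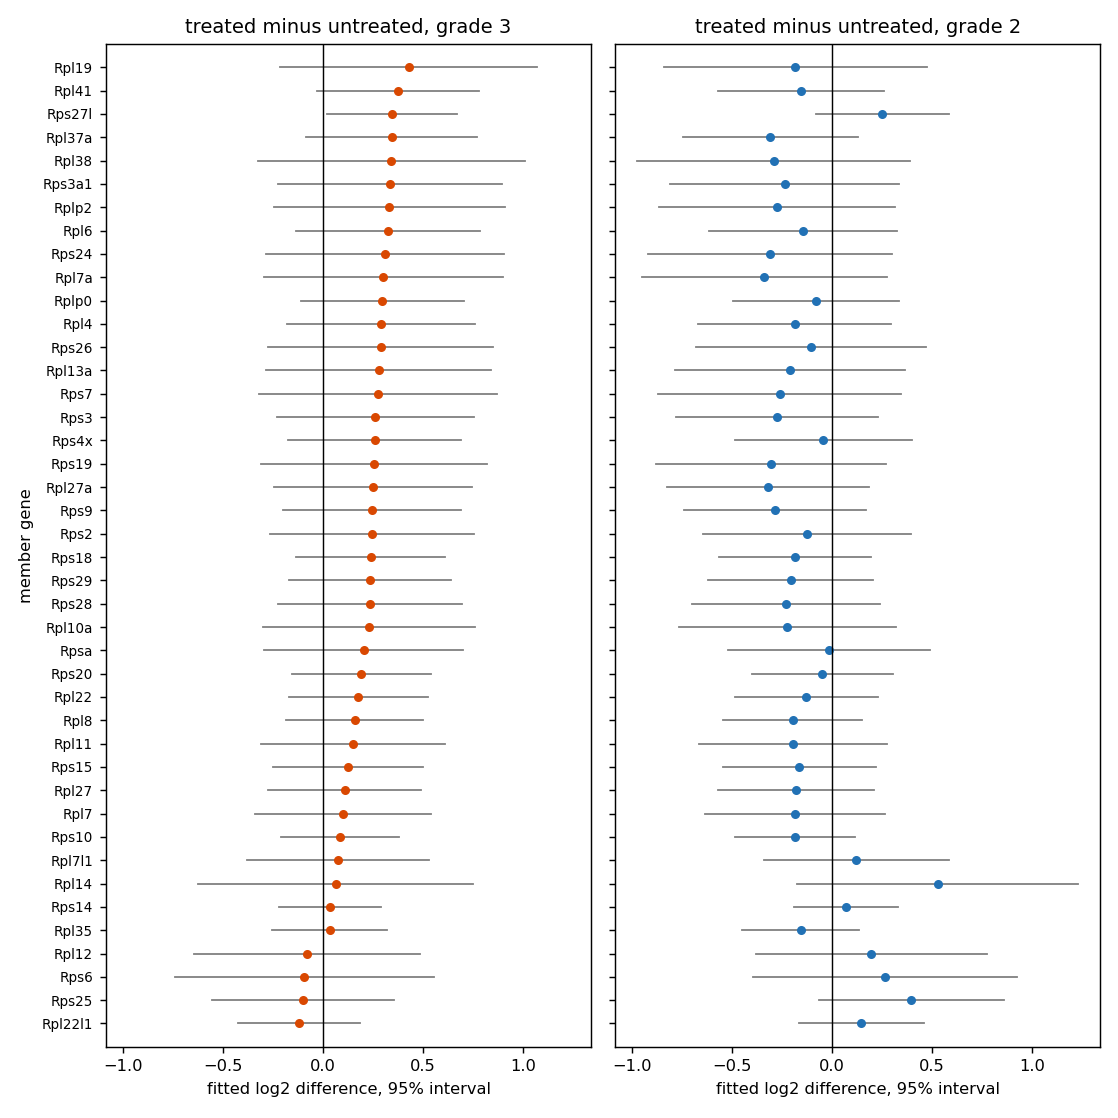
Fitted log2 differences, treated minus untreated, of the 42 members in grade 3 (left) and grade 2 (right), with 95% intervals from limma, in the order of the grade 3 value. In grade 3, 38 points lie right of 0 and in grade 2, 34 lie left of it, and every interval except that of Rps27l in grade 3 covers 0.

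Grade was compared within untreated and within treated tumours, and these comparisons use the same tumours as those of treatment. In untreated tumours no member passed (smallest adjusted p 0.358), 0.178% of all genes passed, and 1 member and 910 genes had an unadjusted p below 0.05. The difference, grade 3 minus grade 2, was above 0 in 6 of 42 members, with a median of −0.28 against 0.00 over all genes. Rpl7a had the lowest value, −0.43 (SE 0.26, limma adjusted p = 0.498). Its signal was 11.61 in 8584T3, 11.90 in 8565T1, 12.17 in 8629T10 and 11.96 in 8629T12 among grade 3 tumours, and 12.45 in 8700T1, 12.36 in 8700T3, 11.67 in 8565T3 and 12.86 in 8565T4 among grade 2 tumours. Grade 2 tumours were higher except 8565T3. With each mouse as a fixed block, so that only mouse 8565 informs the comparison, the members' median was −0.09. In the main fit, with the mouse as a random block, the median without 8565T4 was −0.12. With array weights 3 members and 844 of all genes passed. Marker lists of other cell types were mixed in this comparison. Medians were −0.64 over 9 endothelial, −0.33 over 7 alveolar type 2 and −0.30 over 6 alveolar type 1 markers. They were −0.51 over 4 T and NK cell and −0.74 over 4 club and ciliated cell markers, and in these lists 0 markers were above 0. The median was −0.35 over 7 fibroblast markers (1 above 0) and −0.03 over 11 macrophage markers (4 above 0). It was 0.06 over 2 neutrophil markers (1 above 0) and 0.19 over 5 B and plasma cell markers (3 above 0). The part of these cell types in the members' difference was not tested.

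In treated tumours no member passed (smallest adjusted p 0.997), 0% of all genes passed, and 0 members and 141 genes had an unadjusted p below 0.05. The difference was above 0 in 35 of 42 members with a median of 0.13, against 0.02 over all genes. Without 8639T4, which leaves 9 tumours of the single mouse 8688, the median was 0.21, and without 8688T3 or without 8688T10 it was 0.06. Means per mouse gave −0.02. In neither grade comparison did the groups fail to overlap for any member, against 6.45% of all genes in untreated and 0.781% in treated tumours.

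Rps27l, the p53-responsive paralogue, was the only member whose treated and untreated grade 3 tumours did not overlap, against 4.92% of all genes. Its log2 signal had a low of 11.56, a median of 11.57 and a high of 11.66 in treated grade 3 tumours, and was 10.997 in 8584T3, 11.35 in 8565T1, 11.35 in 8629T10 and 11.18 in 8629T12. In treated grade 2 tumours it was 11.68 in 8688T8, 11.65 in 8688T9, 11.64 in 8639T4 and 11.52 in 8688T10. All 10 treated tumours thus fell between 11.52 and 11.68, the male 8639T4 among them. In untreated grade 2 tumours it was 11.68 in 8700T1 and 11.75 in 8700T3 but 11.12 in 8565T3 and 11.05 in 8565T4. The 6 untreated tumours of mice 8565, 8584 and 8629 lay between 10.997 and 11.35, below every treated tumour. Of mouse 8700, 8700T1 lay level with the highest treated tumour (11.68 in each) and 8700T3 above the treated range.

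The fitted difference of Rps27l was 0.35 in grade 3 (SE 0.16, unadjusted p = 0.039 and adjusted p = 0.522 with limma) and 0.25 in grade 2 (SE 0.16, adjusted p = 0.817 with limma). It did not pass in either. Rps27l was the 1 member with an unadjusted p below 0.05 in grade 3. Its 3 probe sets gave 0.35, 0.35 and 0.36 in grade 3 and 0.25, 0.35 and 0.19 in grade 2. The chosen one, given first, bears the suffix a and the others the suffix x, which marks probes shared between genes. They need not be separate readings of this gene. Set against the mean of the other members in each tumour, Rps27l lay at −0.14 ± 0.14 (SD, n = 6) in treated and −0.38 ± 0.09 (n = 4) in untreated grade 3 tumours, and the groups then overlapped. Its parent gene Rps27 was not measured above the array median on any array, so the pair could not be compared.

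The ribosomal proteins that are known to act on MDM2 or p53 were read as a group. Of 15 such genes 9 were tested, none passed in any comparison, and the medians of treatment were 0.19 in grade 3 and −0.11 in grade 2. Rpl11, the MDM2-binding protein of the large subunit, had fitted differences of 0.15 (SE 0.22) in grade 3 and −0.19 (SE 0.22) in grade 2. Its signal in treated grade 3 tumours had a low of 12.25, a median of 12.31 and a high of 12.77, against 12.11, 12.41, 12.53 and 12.33 in untreated ones. Rps7, which also binds MDM2, had 0.27 (SE 0.28) and −0.26 (SE 0.29), and Rps3, a small subunit protein with a role in DNA repair, 0.26 (SE 0.23) and −0.28 (SE 0.24). Rpl11, Rps7 and Rps3 overlapped between treated and untreated tumours in both grades. Rps27l and Rps25, which are also on this list, did not overlap in grade 3 and in grade 2, respectively.

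Rps25 and Rpl14 were the members whose treated and untreated grade 2 tumours did not overlap, against 8.08% of all genes, and both were higher in treated tumours. Rps25, a small subunit protein used by viral internal ribosome entry sites, was 10.00 in 8688T8, 10.21 in 8688T9, 9.92 in 8639T4 and 10.03 in 8688T10, against 9.81 in 8700T1, 9.59 in 8700T3, 9.81 in 8565T3 and 9.37 in 8565T4. Its difference was 0.40 (SE 0.22, limma adjusted p = 0.778), and −0.10 (SE 0.22) in grade 3, where the treated tumours spanned 9.43 to 10.38 around the untreated range. Rpl14, of the large subunit, was 9.10, 9.10, 8.77 and 8.91 in the treated grade 2 tumours, in the same order, against 8.64, 8.49, 8.61 and 8.10 in the untreated ones. Its difference was 0.53 (SE 0.33, limma adjusted p = 0.817), and 0.06 (SE 0.33) in grade 3, where 8584T3 lay at 7.47. Set against the mean of the other members in each tumour, both genes overlapped between treated and untreated grade 2 tumours. Neither gene was measured by a second probe set that passed the filter.

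Rps6, the small subunit protein phosphorylated by S6 kinases downstream of mTOR, was lowest in the tumours of mice 8639 and 8700. It was 9.48 in 8639T4, 9.36 in 8700T1 and 9.41 in 8700T3, and between 9.97 and 10.81 in the other 15 tumours. Mouse 8639, which was treated, gave 1 tumour, the one with a 3′ excess of 1.85, and mouse 8700 was untreated. In treated grade 3 tumours it had a low of 10.05, a median of 10.43 and a high of 10.56, and in untreated ones it was 10.28, 10.70, 10.36 and 9.97. The fitted differences were −0.09 (SE 0.31) in grade 3 and 0.27 (SE 0.31) in grade 2. In grade 3 the plain group means, 10.38 treated and 10.33 untreated, differed in the other direction from the fit, which takes the mouse as a random block. The family mean ran the other way in these 3 tumours, which were among the higher ones. Only 1 probe set of Rps6 passed the filter, so the low values rest on it.

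**Figure D4:**
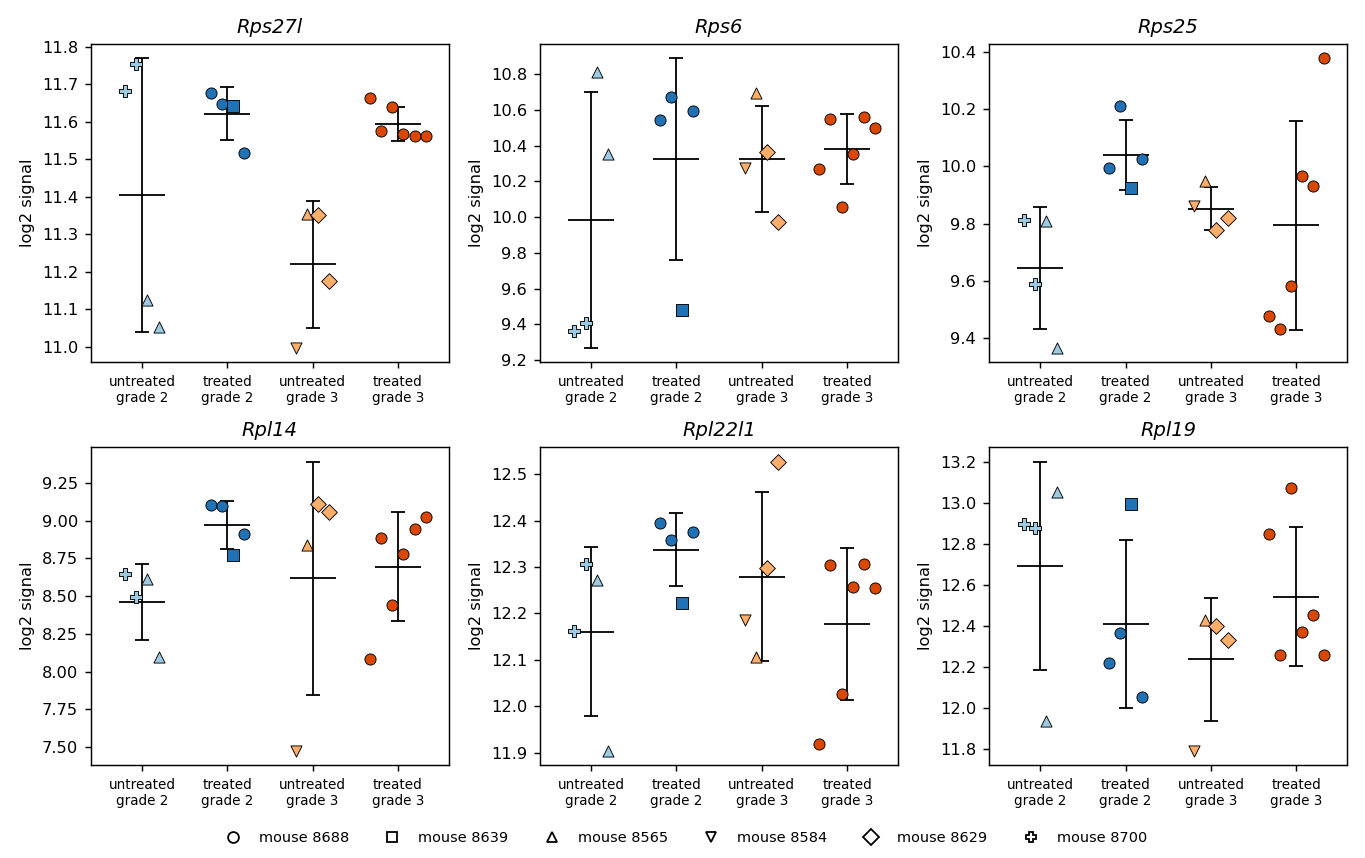
Log2 signal of 6 members in each tumour by group, with the group mean and bars of 1 SD, and marker shapes for the 6 mice; each panel has its own vertical scale. Rps27l is within 11.52 to 11.68 in all treated tumours and lower in all untreated ones except mouse 8700, Rps6 is low in mice 8700 and 8639, Rps25 and Rpl14 are higher in treated grade 2, and Rpl19 shows the family pattern.

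The acidic stalk, which recruits translation factors to the large subunit, was read from Rplp0 and Rplp2. Rplp0 had differences of 0.30 (SE 0.19) in grade 3 and −0.08 (SE 0.20) in grade 2, and Rplp2 0.33 (SE 0.27) and −0.27 (SE 0.28). Rplp2 in untreated grade 3 tumours was 11.33 in 8584T3 against 11.89, 11.88 and 11.81 in the others. Rpsa, the laminin receptor precursor of the small subunit, had 0.20 (SE 0.24) and −0.02 (SE 0.24). Rpl38, known for its role in translating Hox messages, had 0.34 (SE 0.32) and −0.29 (SE 0.32), with 13.28 in 8688T3 as its highest value. Rps3a1 had 0.33 (SE 0.27) and −0.24 (SE 0.27). None of these passed.

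Paralogues could be compared where both were measured. Rpl22, the large subunit protein that restrains its paralogue Rpl22l1, had differences of 0.18 (SE 0.17) in grade 3 and −0.13 (SE 0.17) in grade 2, and Rpl22l1 had −0.12 (SE 0.15) and 0.15 (SE 0.15). Rpl22l1 in untreated grade 2 tumours was 12.16 in 8700T1, 12.31 in 8700T3, 12.27 in 8565T3 and 11.90 in 8565T4, so its lowest tumour was the one with the highest family mean. In treated grade 3 tumours it had a low of 11.92, a median of 12.26 and a high of 12.31, and the groups overlapped. Rpl7l1, a paralogue of Rpl7, had an r of 0.34 with the family and Rpl7 0.83. Rpl41, the smallest ribosomal protein, had 0.37 (SE 0.19) in grade 3 and −0.15 (SE 0.20) in grade 2 by its brightest probe set, but its 3 other probe sets gave 0.03, 0.13 and 0.09 in grade 3 and 0.39, 0.30 and −0.32 in grade 2. The direction of Rpl41 in grade 2 thus depended on the probe set. Over the 19 members with several probe sets that passed, all of a gene's probe sets had 1 sign in 16 genes in grade 3, 10 in grade 2 and 9 for the interaction. Rps14, whose human counterpart is lost in a form of myelodysplastic syndrome, had 0.04 (SE 0.12) and 0.07 (SE 0.12) by its brightest probe set, and Rpl12, a stalk-base protein, −0.08 (SE 0.27) and 0.20 (SE 0.27).

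Of 17 genes mutated in Diamond-Blackfan anaemia, an inherited failure of red cell production, 10 were tested. All 10 are among the 33 members with an r above 0.8, so their signs repeat those given above. They were above 0 in grade 3 and below 0 in grade 2, as were 38 and 34 of all 42 members. Their medians were 0.24 and −0.20, and 0 of 10 passed in any comparison. The other genes with TOP messages lay nearer to 0. Of 18 tested, 0 passed, 15 were above 0 in grade 3 and 9 in grade 2, with medians of 0.10 and 0.00. Eef1a1, the elongation factor that delivers aminoacyl-tRNA, had 0.34 (SE 0.30) and −0.29 (SE 0.31), and Tpt1, a growth-related TOP gene, 0.23 (SE 0.26) and −0.28 (SE 0.26), but Npm1, the nucleolar chaperone, had −0.07 (SE 0.20) and 0.05 (SE 0.20). Between each of these 18 genes and the mean of the others on this list, the median r was 0.48.

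Genes that build ribosomes had medians of smaller size than the members, and in grade 2 of the other sign than the members' −0.18. Of 29 ribosome biogenesis genes tested, 0 passed, 19 were above 0 in grade 3 and 24 in grade 2, with medians of 0.06 and 0.14. Over all genes, 56.9% and 53.9% were above 0. For the interaction the biogenesis median was −0.10, against 0.39 over the members. Of 9 genes of RNA polymerase I and its factors, 0 passed, with medians of −0.04 and 0.07. Between each gene and the mean of the others on its own list, the median r was 0.42 for biogenesis and −0.02 for RNA polymerase I. Among 10 regulators of ribosomal protein synthesis, medians were 0.02 and −0.05, and 1 passed: Eif4ebp1, the mTOR-controlled repressor of cap-dependent translation, rose in treated grade 2 tumours by 1.12 on the log2 scale (SE 0.19, limma adjusted p = 0.022). Its signal was 9.67 in 8688T8, 9.51 in 8688T9, 9.93 in 8639T4 and 9.69 in 8688T10 against 8.71, 8.44, 8.85 and 8.37 in untreated tumours, with no overlap. The call held in 12 of 18 fits that left out 1 tumour, and was lost without 8688T3, 8688T8, 8639T4, 8629T10, 8700T3 or 8565T4, with adjusted p up to 0.276 and a difference between 1.02 and 1.23. With means per mouse it was 1.18 with an adjusted p of 0.659 by limma, and 0 of all genes passed. In grade 3 it was 0.55 (SE 0.19, limma adjusted p = 0.271).

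Marker lists of other cell types are given beside the members, and their part in the members' differences was not tested. All 7 alveolar type 2 markers were above 0 in grade 3 and below 0 in grade 2, with medians of 0.28 and −0.25. Their tumour means ran from 11.99 to 12.75 in grade 3 and 11.93 to 12.47 in grade 2 among the treated, and from 11.73 to 12.20 and 11.88 to 12.68 among the untreated. Of 9 endothelial markers, 8 were above 0 in grade 3 and 1 in grade 2, with medians of 0.39 and −0.23, and tumour means from 7.69 to 8.15, 7.63 to 8.45, 7.40 to 8.20 and 7.96 to 8.88 in the same order. None of these 16 markers passed, and all had signals above the array median on at least 1 array. Of 6 alveolar type 1 markers all were above 0 in grade 3 and 2 in grade 2, and Rtkn2 rose in grade 3, where 1 mouse was treated, by 1.95 (SE 0.25, limma adjusted p = 0.0015). Their tumour means ran from 10.93 to 11.31, 10.87 to 11.35, 10.45 to 10.84 and 10.87 to 11.32 in the same order. Hbb-b2, the 1 erythroid marker tested, fell by 3.09 in grade 3 and by 3.00 in grade 2 (SE 0.37 and 0.38, limma adjusted p = 0.0012 and 0.0026), and Hba-a1 and Alas2 were not above the array median on any array. Both genes passed in all 18 fits that left out 1 tumour. With means per mouse neither passed, with adjusted p of 0.99977 for Rtkn2 and 0.408 and 0.659 for Hbb-b2 by limma. In the other lists 0 markers passed for treatment. Their medians in grade 3 and grade 2 were 0.12 and −0.13 over 11 macrophage markers, −0.02 and −0.54 over 7 fibroblast, 0.12 and −0.30 over 4 T and NK cell, −0.21 and −0.28 over 5 B and plasma cell, 0.24 and 0.68 over 2 neutrophil, and −0.76 and −0.69 over 4 club and ciliated cell markers. Fbln1, a fibroblast matrix gene, was lower by a log2 difference of −1.95 in untreated grade 3 than in untreated grade 2 tumours (SE 0.35, limma adjusted p = 0.025). That call was lost without 8629T12, 8700T3 or 8565T4, with adjusted p up to 0.182, and with means per mouse (adjusted p = 0.736).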

How the data were processed

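Total RNA (100 ng per tumour) was amplified and labelled with biotin for hybridisation, 1 tumour an array, per the labels' protocols. The values are log2 signals as the authors deposited them, and the submitters' processing notes name GCRMA 2.20.0 and R 2.11.0. GCRMA includes quantile normalisation, so a change in total RNA cannot be seen and a shift of many bright genes may be damped. With limma 3.58.1 (R 4.3.3), 4 group means were fitted to 7300 genes, with the mouse as a random block (correlation 0.259, 14 residual and 3.8 prior degrees of freedom), for 5 comparisons with Benjamini-Hochberg adjustment at 0.05. The number of arrays limits the precision, and the steps were tested on simulated data. Members, lists and tests were chosen with earlier results of these data known, so no pattern here is independent support. Named were passing members, the 3 highest and 3 lowest per comparison, the 5 that followed the family most and the 5 least, 11 fixed genes, and up to 3 passing genes per other list. Other genes and probe sets were named after their values were seen. Alternatives were other animal terms, sex or 3′ excess as covariates, leaving out the 2 arrays of highest 3′ excess or each tumour, only the groups compared, other normalisations, filters and probe set rules, a trended robust prior, and array weights. Leaving out only probe sets shared between genes was added after seeing the data.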

Additional observations from a re-analysis of the deposited data

Results flagged for a closer look

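Among 100 groups of values looked at (the 23 named members with values, the family mean and the 3′ excess, in 4 groups), 15 values, in 4 tumours, stood apart from the others of their group by Dixon's criterion. Chance gives about 1 in 20 where groups of values are independent. These groups share arrays, and many members were named for their values, so the 15 cannot be set against that rate. In untreated grade 3, 8584T3 was below the other 3 tumours in Rpl14 (7.47), Rpl19 (11.79), Rpl37a (11.84), Rplp2 (11.33), Rps14 (12.20), Rps7 (10.92) and Rpsa (10.96). The members share 1 variation over tumours, so these 7 are not separate signs. In treated grade 2, 8639T4 was above the others in Rps3a1 (12.50), Rps7 (11.87) and Rpsa (11.80), below them in Rps6 (9.48), and above them in 3′ excess (1.85). In treated grade 3, 8688T3 was above the others in Rpsa (11.91) and in 3′ excess (2.62). In untreated grade 2, 8565T3 was below the others in Rpl19 (11.94).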

How the results depend on the processing

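No member passed in any comparison under any alternative except array weights, with which 28 of 42 members passed for treatment in grade 2 and 3 for grade in untreated tumours; 1975 and 844 of all genes then passed, and the estimated correlation within mice was 0.0033. With array weights the members' median difference for treatment in grade 3 was −0.0068. With sex as a covariate the medians were 0.586 in grade 3 and 0.110 in grade 2. Without probe sets bearing any shared suffix (15 members) they were 0.0684 for treatment in grade 2, −0.0140 for the interaction and −0.0429 for grade in untreated tumours. Every other alternative moved the medians by less than the pooled SD of the member mean between tumours of a group, 0.199. That SD is larger than the medians for treatment in grade 2 (−0.18) and for grade in treated tumours (0.13). A median could therefore reach 0 within it, and it cannot show that these medians held. Grade in treated tumours turned to −0.0212 with means per mouse. Leaving out each tumour in turn, the number of members that passed stayed at 0, and medians ran from 0.0962 to 0.299 for treatment in grade 3, −0.295 to −0.0227 in grade 2, 0.257 to 0.573 for the interaction, −0.404 to −0.122 for grade in untreated and 0.0561 to 0.205 in treated tumours. Counts over all genes moved more: without an animal term 272, 37, 0, 111 and 0 genes passed, and with means per mouse 0 in each. No paired analysis was possible because the replicate numbers only name tumours and pair none of them, and no mouse carried treated and untreated tumours. With the mouse as a fixed block, which compares grade within mice, the grade medians were −0.0870 (untreated) and 0.205 (treated). With 4 or 6 tumours a group and mostly 1 mouse treated, differences near 0.2 are within the members' error, and bright probe sets may compress them.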
